A study of Mus musculus with 7 samples.

Results

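The interleukin-6 (IL-6) family was followed in mouse C2C12 muscle cells that had been incubated with exosomes, the small vesicles that cells release, from other C2C12 cultures. The genes described are Il6, Lif, Il11 and Clcf1, which encode cytokines, Il6ra, Il6st, Osmr and Lifr, which encode receptor chains, Stat3, which encodes the signal transducer, and Socs3, which encodes its feedback inhibitor. They were chosen by gene name, and every non-control probe that the array annotation gives for these 10 genes was taken, 13 of the 39429 probes and 10 of the 31829 gene names on the array. C2C12 is a line of mouse myoblasts that fuse into myotubes, and the study asked whether exosomes of palmitate-treated muscle cells alter gene expression in the cells that receive them. Donor myotubes were treated with palmitate, a saturated fatty acid, at 0.5 mmol/l, or with BSA, its carrier protein. In the EXO-Post Palm group (n = 3) recipient C2C12 cells were kept for 24 h in serum-free medium with exosomes collected 9 h after palmitate had been taken off the donors. In the EXO-Post BSA group (n = 4) they received exosomes of the BSA-treated donors for as long and in the same medium. Both groups therefore received exosomes, and an array of cells without exosomes was not analysed here. The labels call the arrays biological replicates without saying what was separate. They give the recipients as myoblasts where the methods have myotubes, and they give a different cell line number on each array although the source is named C2C12 throughout.

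Cytokines of this family share the receptor chain gp130, the product of Il6st. For some of them, though not for IL-6 or IL-11, it pairs with the receptor chain for LIF or oncostatin M. The receptor complex activates JAK kinases, which phosphorylate STAT3, and STAT3 then induces SOCS3, which blocks the receptor and the kinases. Muscle cells make IL-6 themselves and release it during contraction, and LIF and IL-6 are both known to act on myoblasts.

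Values are log2 of the background-subtracted intensity of a probe minus the 75th percentile of its array, so 0 is the level of that percentile, and a level of 1 probe cannot be set against that of another. The percentile lay between 549.4 and 1621 intensity units, and between 19038 and 27706 probes of an array were well above background. Arrays correlated at 0.9465 to 0.9841, and the arrays stood on 4 slides, of which only slide 1 (EXO-Post BSA replicates 1 and 2, EXO-Post Palm replicate 1) and slide 3 (EXO-Post BSA replicate 4, EXO-Post Palm replicate 3) held both groups. All 8 muscle markers, Myog and Des among them, were above background on every array. Their summed level was 351 to 475.7 times the 75th percentile in EXO-Post BSA and 355.1 to 423.9 times in EXO-Post Palm. Among them Des was higher in EXO-Post Palm without overlap, by a log2 difference of 0.50 (limma adjusted p = 0.446). Myh3 was lower without overlap, by -0.46 (limma adjusted p = 0.5115). Of the 4 endothelial markers, Pecam1 and Kdr were above background on all arrays, and Cdh5 and Tek on 0, with a summed level of 4.152 to 5.275 in EXO-Post BSA and 3.051 to 6.2 in EXO-Post Palm. Of the 8 leukocyte markers on the array, Csf1r, Cd14, Itgam and Cd3e were above background on all arrays, Emr1 on 6, Ptprc on 2, Cd68 on 1 and Lyz2 on 0. The groups did not overlap for Itgam, lower by a log2 difference of -1.63 (limma adjusted p = 0.111), and Cd14, higher by 1.05 (limma adjusted p = 0.219). The summed level of the 8 was 8.28 to 19.02 in EXO-Post BSA and 6.414 to 7.758 in EXO-Post Palm. The Itgam probe was the brightest of the 8 in mean in both groups and weighs most in this sum. Of the other tested leukocyte markers, Cd14, Csf1r and Emr1 were higher in mean in EXO-Post Palm and Cd3e was lower. The summed level of 5 adipocyte markers was 0.668 to 0.7535 and 0.536 to 0.8129. Markers of proliferating cells moved with the group. Of 7 on the array, 6 were tested and all 6 were higher in mean in EXO-Post Palm, 4 of them (Mki67, Top2a, Ccnb1 and Plk1) past the threshold, while Aurkb was above background on 0 arrays. Their summed level was 4.444 to 5.796 in EXO-Post BSA and 25.07, 15.31 and 41.21 on replicates 1 to 3 of EXO-Post Palm, and their part in the results below was not tested. In bulk RNA, fewer cells of a type and less RNA per cell cannot be told apart.

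Of the 13 probes, 12 were well above background on all 7 arrays and were tested, and they stand for 9 of the 10 genes, Lif being the other. With limma over all 21589 tested probes, 115 passed a Benjamini-Hochberg adjusted p of 0.05, and 0 of the 12 family probes were among them, against 0.533% of all tested probes. At an unadjusted p under 0.05, 6 of the 12 passed, 3 higher and 3 lower in EXO-Post Palm, where 10.05% of all tested probes did. The 4 EXO-Post BSA arrays and the 3 EXO-Post Palm arrays did not overlap for the same number of probes, 6, again 3 higher and 3 lower, where 11.2% of the 21137 probes with a value on every array did not overlap. The probes without overlap were those of Il6, Osmr and 1 Stat3 probe, which were higher, and those of Il6ra and 2 Lifr probes, which were lower. The median log2 difference, always EXO-Post Palm minus EXO-Post BSA, was 0.26 over the 12 probes and -0.02 over all tested probes.

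**Figure D1:**
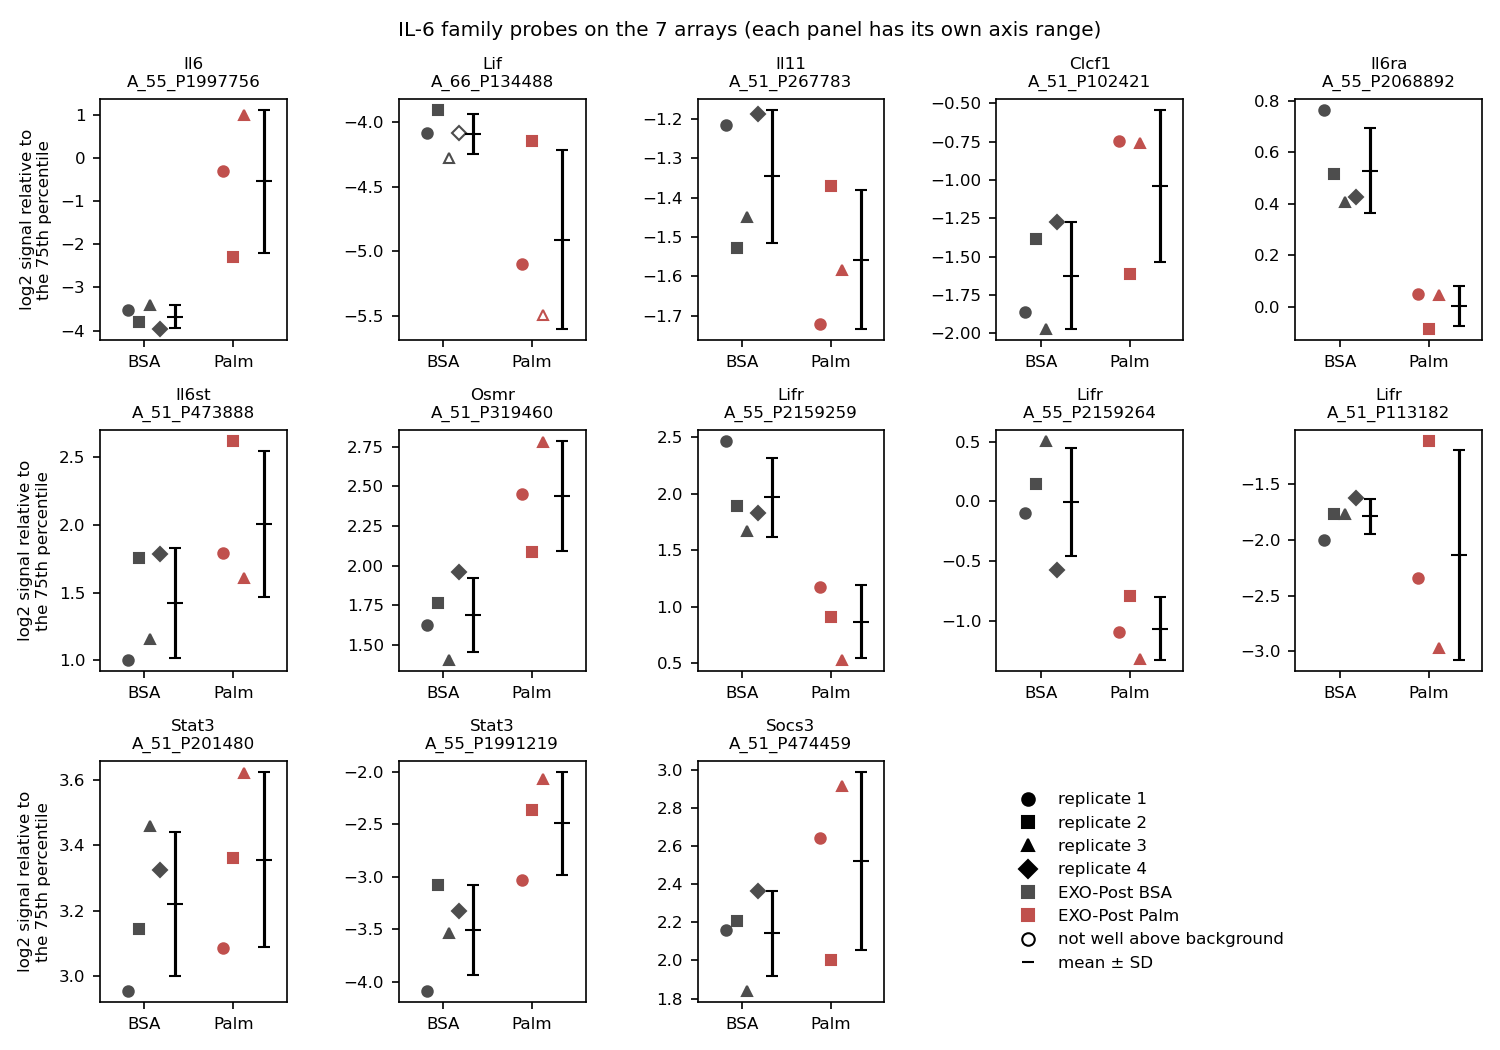
Log2 signal relative to the array's 75th percentile (y axis, a range of its own in each panel) of the 13 family probes, with 1 point per array, 4 EXO-Post BSA and 3 EXO-Post Palm, and the mean ± SD beside them. Open points are not well above background, and the panels of Il6, Il6ra, Osmr, the first 2 Lifr probes and the second Stat3 probe have no overlap between the groups.

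Il6, the cytokine that names the family, had the widest gap between the groups of these genes. Its probe, A_55_P1997756, is annotated to chr5:30346367-30346426 (mm9, plus strand). It is a 60-base oligonucleotide, and its first 30 bases, which show the transcript that was read, are these.
Il6 probe, bases 1 to 30: ctgttacctagccagatggtttcttggaat

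The background-subtracted intensities of EXO-Post BSA, replicates 1 to 4 in order, were 101.2, 64.5, 80.74 and 46.16. Those of EXO-Post Palm, replicates 1 to 3, were 1315, 131.4 and 1096. After scaling, the log2 levels were -3.52, -3.81, -3.40 and -3.98 in EXO-Post BSA and -0.30, -2.30 and 1.00 in EXO-Post Palm. Every EXO-Post Palm array stood above every EXO-Post BSA array, but the former spread widely, with an SD of 1.66 (n = 3) against 0.26 (n = 4). The SD of the other 12 probes was 0.0790 to 0.946 in EXO-Post Palm and 0.154 to 0.454 in EXO-Post BSA. The difference was 3.14 on the log2 scale (SE 0.646, 95% interval 1.67 to 4.61), an 8.81-fold higher geometric mean. Its limma p ranked 205 among all tested probes, with an adjusted p of 0.105, and the exact permutation p was 0.0286 (2-sided), the smallest that 4 against 3 arrays can give. Within slide 1 the difference was 3.36 and within slide 3 it was 4.97. With slide as a block it was 4.05 with a limma adjusted p of 0.0327, which passes the threshold. EXO-Post BSA replicate 3 and EXO-Post Palm replicate 2 have no other array on their slides. The block fit therefore takes the difference from slides 1 and 3 alone. EXO-Post Palm replicate 2, which stands alone on its slide, was the array nearest to EXO-Post BSA, and leaving it out gave 4.02 (limma adjusted p = 0.0112). The EXO-Post BSA intensities were low, so the size of the difference is uncertain. With normexp background correction and quantile normalisation the difference was 1.93 (limma adjusted p = 0.121). That alternative also adds an offset of 50 intensity units to every spot, and the effect of the offset alone was not tested. Among the EXO-Post Palm arrays, replicate 2 had the lowest summed level of the proliferation markers and replicate 3 the highest, in the order of the Il6 levels.

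In the reference table the Il6 start has the following 250 bases before it, printed because 2 of the searched motifs lie in them. The stretch is chr5:30012864-30013113 on GRCm38.p6, plus strand, a later build than that of the probe position, and capitals mark the matches.
Il6 upstream: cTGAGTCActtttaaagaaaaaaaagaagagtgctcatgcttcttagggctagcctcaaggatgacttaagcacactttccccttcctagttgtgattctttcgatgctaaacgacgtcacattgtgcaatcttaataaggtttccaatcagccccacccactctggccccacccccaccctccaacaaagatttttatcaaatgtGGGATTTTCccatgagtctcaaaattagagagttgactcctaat

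The first capitals, 249 bases before the start, match the AP-1 motif TGANTCA, and the second, 44 bases before it, match the NF-kB motif GGGANTTTC. AP-1 is the dimer of Jun and Fos proteins, and NF-kB is the dimer of inflammation whose subunits include the products of Nfkb1 and Rela. Of 32851 mouse promoter windows of 250 bases before to 50 after a start, 7.81% held the AP-1 motif and 1.11% the NF-kB motif on either strand. Of the family, 9 genes with 11 windows were in the table. An AP-1 match was also found in the windows of Lif, 1 of 2 starts of Il11, and Osmr. The STAT GAS element TTCNNNGAA (8.3% of all windows) was found in Socs3 alone, and the CRE TGACGTCA (1.79%), the C/EBP motif TTGCGCAA (0.183%) and the TATA box TATAAA (13.6%) in none of the 11. Only the exact letters were searched, with N as any base, so a site that differs from a motif by a letter was not counted. A match is a description of the letters and not of binding.

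For the other cytokines the groups overlapped. Lif encodes leukaemia inhibitory factor, and its probe A_66_P134488 (chr11:4172032-4172091, mm9, plus strand) was too dim to be tested, well above background on 2 of 4 EXO-Post BSA and 2 of 3 EXO-Post Palm arrays. The log2 levels were -4.09, -3.91, -4.28 and -4.08 in EXO-Post BSA and -5.09, -4.15 and -5.50 in EXO-Post Palm. EXO-Post Palm replicate 2 fell inside the range of EXO-Post BSA and the other two lay below it. The means were -4.09 ± 0.15 (SD, n = 4) and -4.91 ± 0.69 (SD, n = 3), and the difference of -0.82 had an exact permutation p of 0.0571 (-0.33 with normexp and quantile normalisation).

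Il11 encodes interleukin-11, which signals through gp130 with a receptor chain of its own. Its probe A_51_P267783 (chr7:4724847-4724906, mm9, minus strand) gave -1.22, -1.53, -1.45 and -1.19 in EXO-Post BSA and -1.72, -1.37 and -1.58 in EXO-Post Palm. The groups overlapped, and the difference was -0.21 (SE 0.202, 95% interval -0.67 to 0.25, limma adjusted p = 0.766). Clcf1 encodes cardiotrophin-like cytokine factor 1, a ligand of the CNTF receptor. Its probe A_51_P102421 (chr19:4222480-4222539, mm9, plus strand) gave -1.86, -1.38, -1.97 and -1.27 in EXO-Post BSA and -0.74, -1.61 and -0.76 in EXO-Post Palm. EXO-Post Palm replicates 1 and 3 stood above all EXO-Post BSA arrays, and replicate 2 stood among them. The difference was 0.58 (SE 0.297, 95% interval -0.09 to 1.26, limma adjusted p = 0.564).

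The receptor chains went in both directions. Il6ra encodes the chain that binds IL-6 itself, and its probe is A_55_P2068892 (chr3:89674054-89674113, mm9, minus strand). The log2 levels were 0.77, 0.52, 0.41 and 0.43 in EXO-Post BSA and 0.05, -0.09 and 0.05 in EXO-Post Palm. All EXO-Post Palm arrays lay below all EXO-Post BSA arrays, and the 3 were closer together than for any other family probe. The difference was -0.53, a ratio of 0.695 (SE 0.193, 95% interval -0.96 to -0.09, limma adjusted p = 0.415, exact permutation p = 0.0286), with -0.59 within slide 1 and -0.38 within slide 3.

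Il6st encodes gp130, the chain that all these cytokines use. Its probe A_51_P473888 (chr13:113296586-113296645, mm9, plus strand) gave 1.00, 1.75, 1.16 and 1.79 in EXO-Post BSA and 1.79, 2.62 and 1.61 in EXO-Post Palm. EXO-Post Palm replicate 2 was the high array here, the reverse of its place for Il6, replicate 1 was level with the highest EXO-Post BSA array and replicate 3 lay inside the EXO-Post BSA range. The difference was 0.58 (SE 0.322, 95% interval -0.15 to 1.32, limma adjusted p = 0.597). It was 0.42 within slide 1 and -0.18 within slide 3, 0.16 with slide as a block (limma adjusted p = 0.907) and 0.28 once EXO-Post Palm replicate 2 was left out, and no other family probe changed sign between slides.

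Osmr encodes the oncostatin M receptor chain, which pairs with gp130. Its probe A_51_P319460 (chr15:6763686-6763745, mm9, minus strand) gave 1.63, 1.77, 1.40 and 1.96 in EXO-Post BSA and 2.45, 2.09 and 2.78 in EXO-Post Palm. All EXO-Post Palm arrays were above all EXO-Post BSA arrays, with replicate 2 the lowest and replicate 3 the highest, as for Il6. The difference was 0.75, a 1.68-fold higher level (SE 0.242, 95% interval 0.20 to 1.30, limma adjusted p = 0.334, exact permutation p = 0.0286), and it was 0.75 within slide 1 and 0.82 within slide 3.

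Lifr encodes the LIF receptor chain, the partner of gp130 for LIF, and the array reads it with 3 probes that did not behave alike. Their first 30 bases, of 60, are printed to show which stretches differ.
Lifr probe A_55_P2159259: catagatgatgtaaatagcctaagacactg
Lifr probe A_55_P2159264: taaaaacttggaaatgtatccaggcctaac
Lifr probe A_51_P113182: agaacaaaccaaatgactaaccaggtcacc

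On mm9, plus strand, they are annotated to chr15:7147319-7147378, chr15:7135072-7135131 and chr15:7141150-7141209. The second is annotated to transcript variant 2 and the others to another RefSeq transcript of the gene. The first gave 2.47, 1.89, 1.67 and 1.83 in EXO-Post BSA and 1.17, 0.91 and 0.52 in EXO-Post Palm, with no overlap. Its difference was -1.10, a ratio of 0.467 (SE 0.264, 95% interval -1.70 to -0.50, limma adjusted p = 0.165, exact permutation p = 0.0286), with -1.01 within slide 1 and -1.31 within slide 3.

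The probe of variant 2 gave -0.10, 0.14, 0.51 and -0.58 in EXO-Post BSA and -1.10, -0.79 and -1.32 in EXO-Post Palm. The groups again did not overlap, and EXO-Post BSA replicate 4 came nearest to EXO-Post Palm. The difference was -1.06 (SE 0.286, limma adjusted p = 0.224, exact permutation p = 0.0571), with -1.12 within slide 1 and -0.74 within slide 3. The remaining probe, A_51_P113182, gave -2.00, -1.76, -1.76 and -1.62 in EXO-Post BSA and -2.34, -1.11 and -2.97 in EXO-Post Palm. Here EXO-Post Palm replicate 2 was the highest of all arrays while the other two were the lowest. The difference was -0.35 (SE 0.395, limma adjusted p = 0.805). It turned to 0.065 once EXO-Post Palm replicate 3 was left out. Whether the gap between the probes is one of transcripts was not tested.

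**Figure D2:**
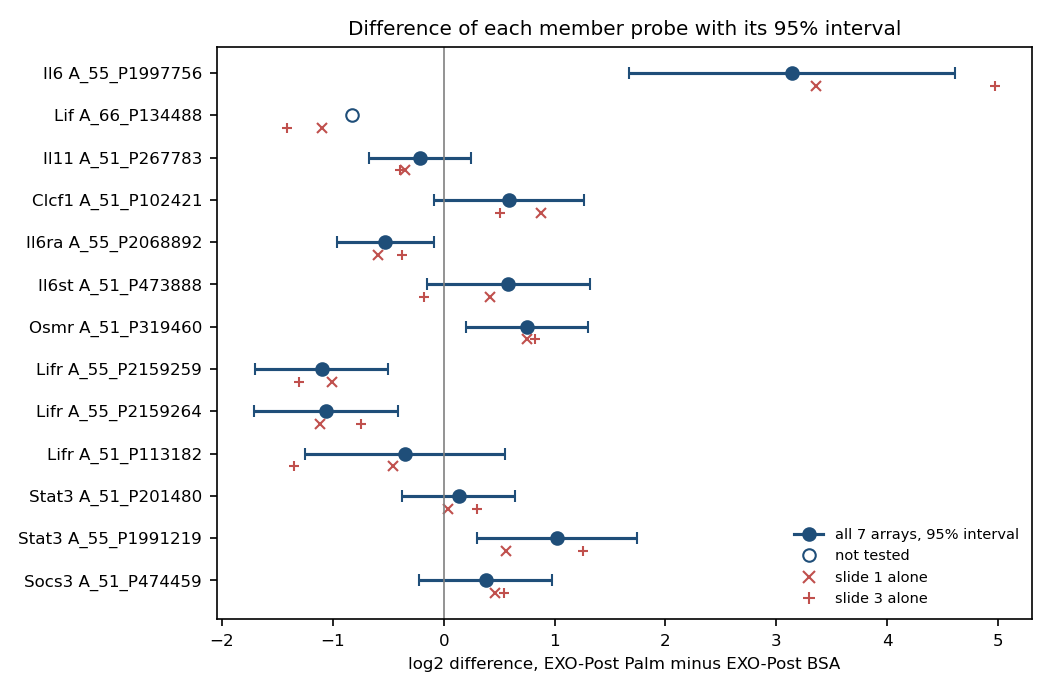
Log2 difference of each of the 13 family probes, EXO-Post Palm minus EXO-Post BSA (x axis), with the limma 95% interval over all 7 arrays, an open circle for the probe that was not tested, and crosses for the differences within slides 1 and 3. The intervals of Il6, Il6ra, Osmr, 2 Lifr probes and 1 Stat3 probe leave out 0, and Il6st lies on opposite sides of 0 within the slides.

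Stat3 encodes the transcription factor that gp130 activates, and its 2 probes also differed. Both are on the minus strand of chromosome 11 on mm9, at chr11:100749598-100749657 and chr11:100759946-100760005, and their first 30 bases follow.
Stat3 probe A_51_P201480: cactctgtgagctgataccccaggctggga
Stat3 probe A_55_P1991219: tttaacattctgggcacgaacacaaaagtg

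The first is printed in 10 spots, and their mean gave 2.95, 3.14, 3.46 and 3.32 in EXO-Post BSA and 3.09, 3.36 and 3.62 in EXO-Post Palm. The groups overlapped through most of their range, with a difference of 0.14 (SE 0.224, limma adjusted p = 0.874). The second probe, which the annotation also gives to a predicted transcript, had 1 spot and gave -4.09, -3.08, -3.53 and -3.32 in EXO-Post BSA and -3.03, -2.37 and -2.07 in EXO-Post Palm. EXO-Post Palm replicate 1 was just above the highest EXO-Post BSA array and the other two were further up. Its difference was 1.02 (SE 0.317, limma adjusted p = 0.316, exact permutation p = 0.0286), with 0.56 within slide 1 and 1.25 within slide 3. Its intensities were low, 68.07 to 106.9 in EXO-Post BSA and 125.7 to 199.2 in EXO-Post Palm, and with normexp background correction and quantile normalisation its difference was 0.46.

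Socs3 encodes the inhibitor that STAT3 induces, and the probe is A_51_P474459 (chr11:117827480-117827539, mm9, minus strand). Its upstream 250 bases (chr11:117969367-117969616, GRCm38.p6, minus strand) are printed because they hold the STAT GAS element, in capitals, 154 bases before the start.
Socs3 upstream: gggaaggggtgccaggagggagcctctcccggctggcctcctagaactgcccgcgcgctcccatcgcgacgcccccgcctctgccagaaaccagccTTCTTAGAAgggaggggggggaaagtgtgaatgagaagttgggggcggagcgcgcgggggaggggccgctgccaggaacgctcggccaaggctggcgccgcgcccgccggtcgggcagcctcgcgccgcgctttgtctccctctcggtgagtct

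The log2 levels of Socs3 were 2.16, 2.21, 1.84 and 2.37 in EXO-Post BSA and 2.64, 2.00 and 2.91 in EXO-Post Palm. EXO-Post Palm replicates 1 and 3 were above all EXO-Post BSA arrays, and replicate 2 was below all of them but 1. The means were 2.14 ± 0.22 (SD, n = 4) and 2.52 ± 0.47 (SD, n = 3), a difference of 0.38 (SE 0.265, 95% interval -0.23 to 0.98, limma adjusted p = 0.678, exact permutation p = 0.229). Within slides 1 and 3 it was 0.46 and 0.55, and leaving out EXO-Post Palm replicate 2 gave 0.64 (limma adjusted p = 0.430), while normexp and quantile normalisation gave 0.16.

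Over the family, the spread between arrays was larger in EXO-Post Palm than in EXO-Post BSA for 10 of 13 probes. No EXO-Post Palm array was extreme for all genes. Replicate 2 was the lowest of the 3 for 5 probes and the highest for 5, and replicate 3 was the lowest for 5 and the highest for 5. The 5 probes lowest on replicate 2 were those of Il6, Clcf1, Il6ra, Osmr and Socs3, and the 5 highest on it were those of Lif, Il11, Il6st and 2 of Lifr.

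**Figure D3:**
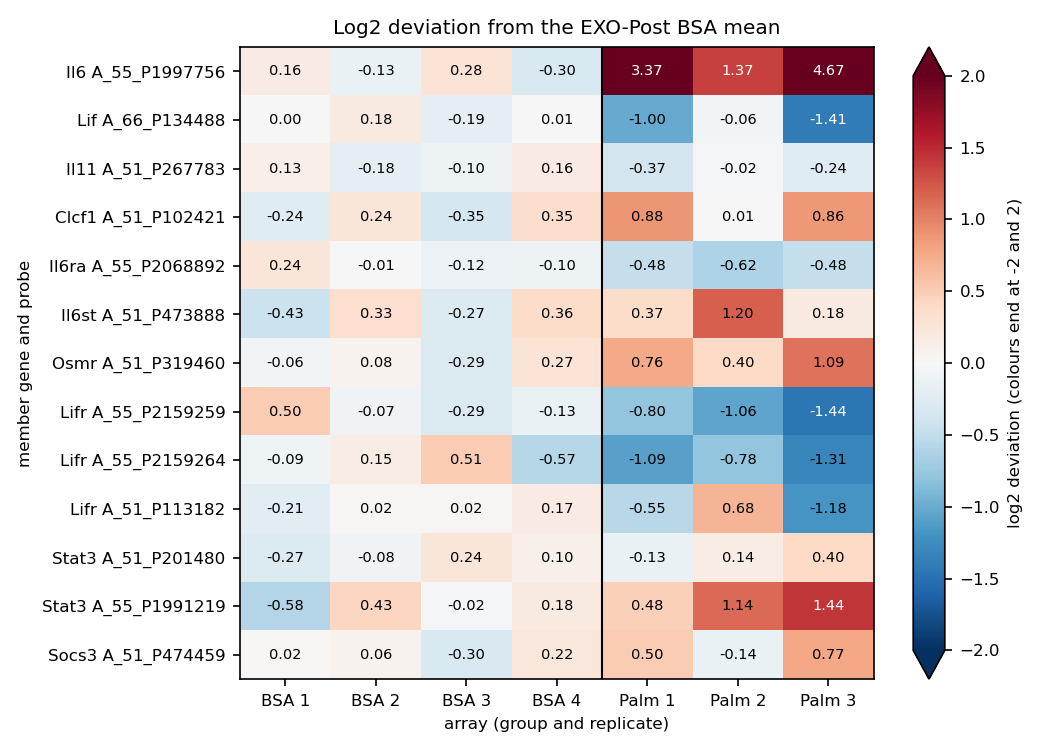
Log2 deviation of each array (columns) from the EXO-Post BSA mean of the probe for the 13 family probes (rows), printed in each cell, with the colour scale ending at -2 and 2. EXO-Post Palm replicates 1 and 3 have the largest Il6 deviations, 3.37 and 4.67, and replicate 2 has 1.37.

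The wider pathway was read through 61 more genes in 6 lists, 1 probe for each, of which 45 were tested. At the adjusted threshold 0 of the 45 passed in either direction. In the same limma fit, 12 were higher at an unadjusted p under 0.05 and 0 were lower, beside 10.05% of all tested probes in either direction. For 11 the groups did not overlap, beside 11.2% of the probes with a value on every array. Of the 11, Bcl2l1 was lower and the rest were higher. The median difference was 0.13, against -0.02 over all tested probes. Without EXO-Post Palm replicate 3 the number higher was 7 and without EXO-Post BSA replicate 1 it was 8, and with slide as a block 8 were higher and 2 lower.

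Other ligands of the family gave little. Of 8, 5 were tested, 3 higher and 2 lower in mean. Cntf, ciliary neurotrophic factor, had the largest positive difference, 0.52 (SE 0.207, limma adjusted p = 0.454), and Ctf2, a cardiotrophin gene, the largest negative one, -0.96 (SE 0.472, limma adjusted p = 0.552). Ctf2 was above background on 3 of 4 EXO-Post BSA arrays and on 1 of 3 EXO-Post Palm arrays, so it was tested through the group where it was high and its size is uncertain. Of 6 other receptor chains and sheddases, the enzymes that cut receptors from the surface, 3 were tested, with Adam17 at 0.13 and Adam10 at -0.42. JAK kinases and other STATs ranged from 0.25 for Tyk2 to -0.35 for Stat5a among 5 of 6 tested. Other feedback regulators, 7 of 8 tested, ranged from 0.25 for Pias3 to -0.26 for Pias1, both inhibitors of activated STATs, and none of these 3 lists had a gene at an unadjusted p under 0.05. Cish, another SOCS family gene named here after its values were seen, was too dim to be tested, with -6.79 to -5.17 in EXO-Post BSA and -4.53 to -4.24 in EXO-Post Palm, above background on 2 of 4 and 2 of 3 arrays.

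Genes known to be induced through gp130 and STAT3 were higher more often than lower in mean, 10 against 6 of the 16 tested of 22, with a median of 0.25. At an unadjusted p under 0.05, 7 were higher and 0 lower, beside 10.05% of all tested probes in either direction. Of the 7 genes, Hp was tested through EXO-Post Palm alone. A limma fit of only the probes above background on all arrays kept 15 of the genes, with a median of 0.076. In mean 9 of the 15 were higher and 6 lower, and 6 were higher and 0 lower at an unadjusted p under 0.05. Of all 17276 probes in that fit, 2034 passed the same p in either direction. Saa3, an acute phase serum amyloid gene, had the largest positive difference. It gave -2.80 to -1.82 in EXO-Post BSA and -0.02, -1.39 and 1.82 on replicates 1 to 3 of EXO-Post Palm, and the arrays did not overlap. The difference was 2.32 (SE 0.646, limma adjusted p = 0.243). EXO-Post Palm replicate 2 was again the lowest of its group and replicate 3 the highest. Lcn2, which encodes the siderophore-binding protein lipocalin 2, had the largest negative difference, -0.56 (SE 0.276, limma adjusted p = 0.555).

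The other 6 with an unadjusted p under 0.05 are named after their values were seen. They were Cebpd, a C/EBP transcription factor, at 1.85 (limma adjusted p = 0.164), and Hp, the acute phase protein haptoglobin, at 1.81 (limma adjusted p = 0.319). Mt2, a metallothionein, was at 1.05, Bcl3, an atypical IkB protein, at 0.79, Timp1, a metalloproteinase inhibitor, at 0.70, and Il4ra, the interleukin-4 receptor chain, at 0.53. Cebpd gave 1.22 to 1.90 in EXO-Post BSA and 3.73, 2.31 and 4.35 on replicates 1 to 3 of EXO-Post Palm, once more with replicate 2 lowest. Hp was above background on 2 of 4 EXO-Post BSA arrays and on all of EXO-Post Palm, so the size of its difference is uncertain. Bcl2l1, of the same list and also named after its values were seen, was lower without overlap. It gave 3.585 to 3.796 in EXO-Post BSA and 3.255 to 3.512 in EXO-Post Palm. Its difference was -0.32 (SE 0.187, limma adjusted p = 0.612).

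Factors that act on Il6 transcription or its mRNA had the highest median of the lists, 0.32. Of 11, 9 were tested, 7 higher and 2 lower in mean. At an unadjusted p under 0.05, 4 were higher and 0 lower, beside 10.05% of all tested probes in either direction. Fosl1, a Fos-related partner of Jun in AP-1, had the largest positive difference, 1.29 (SE 0.282, limma adjusted p = 0.128). Its levels were -3.39 to -2.58 in EXO-Post BSA and -1.83, -1.89 and -1.26 in EXO-Post Palm, and the groups did not overlap. Jun had the largest negative one, -0.34 (SE 0.308, limma adjusted p = 0.750). The others at an unadjusted p under 0.05, named after their values were seen, were Nfkb1 at 0.85, Nfkbiz, a nuclear IkB protein, at 0.85, and Rela at 0.63.

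**Figure D4:**
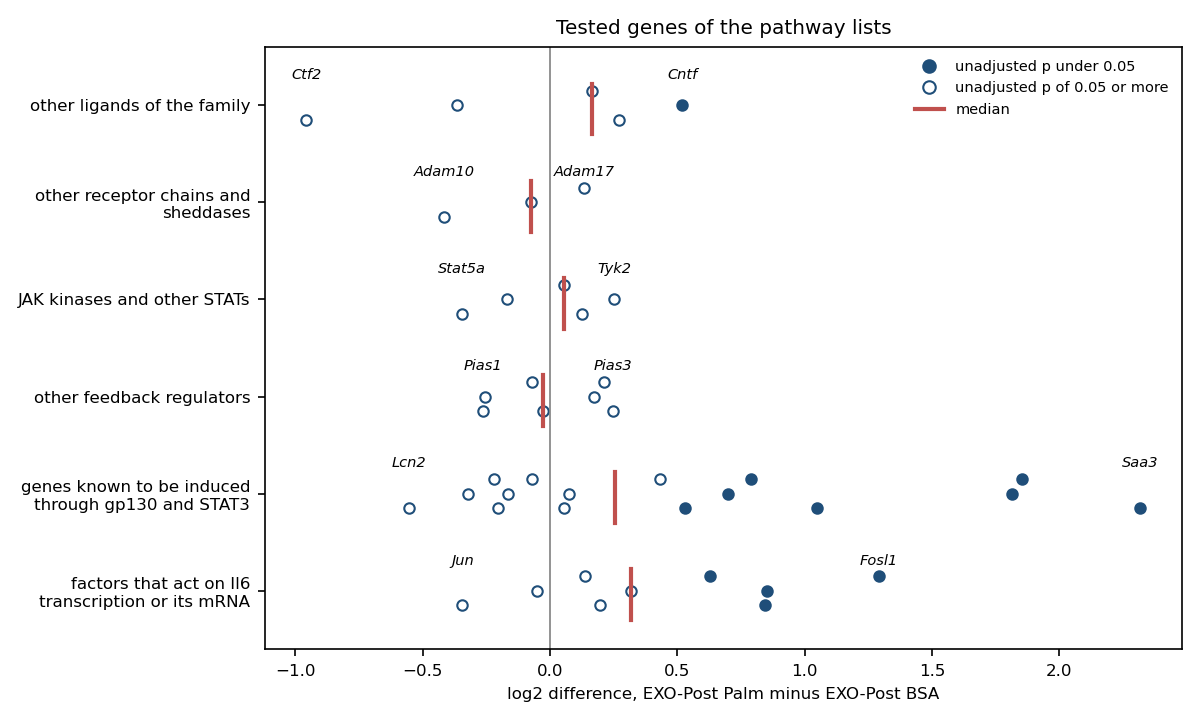
Log2 difference, EXO-Post Palm minus EXO-Post BSA (x axis), of the 45 tested genes of the 6 pathway lists, 1 point per gene, filled where the unadjusted limma p is under 0.05, with the median of each list as a bar. The gene with the largest and the smallest difference of each list is named, and the filled points, all to the right of 0, lie in 3 lists.

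The pattern of Il6 over the 7 arrays was compared with that of 17511 tested probes of other named genes, by the root mean square difference of their log2 deviations from the EXO-Post BSA mean. Of those above background on every array, the nearest were Cxcl1, a neutrophil chemokine, at 0.450, Nr4a2, an orphan nuclear receptor, at 0.555, and Thbd, the thrombin receptor thrombomodulin, at 0.593. The other 2 of the 5 nearest, Prss2, a trypsinogen gene, and Mxd3, a partner of Max, were tested through EXO-Post Palm alone, being above background on 0 and 2 of 4 EXO-Post BSA arrays. Their distances, 0.416 and 0.507, are therefore taken from an EXO-Post BSA mean at or near background. Cxcl1 stood 2.94, 1.53 and 4.15 above its EXO-Post BSA mean on replicates 1 to 3 of EXO-Post Palm, where Il6 stood 3.37, 1.37 and 4.67 above. These genes were picked for this pattern, so the order of their arrays is a description of the choice.

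**Figure D5:**
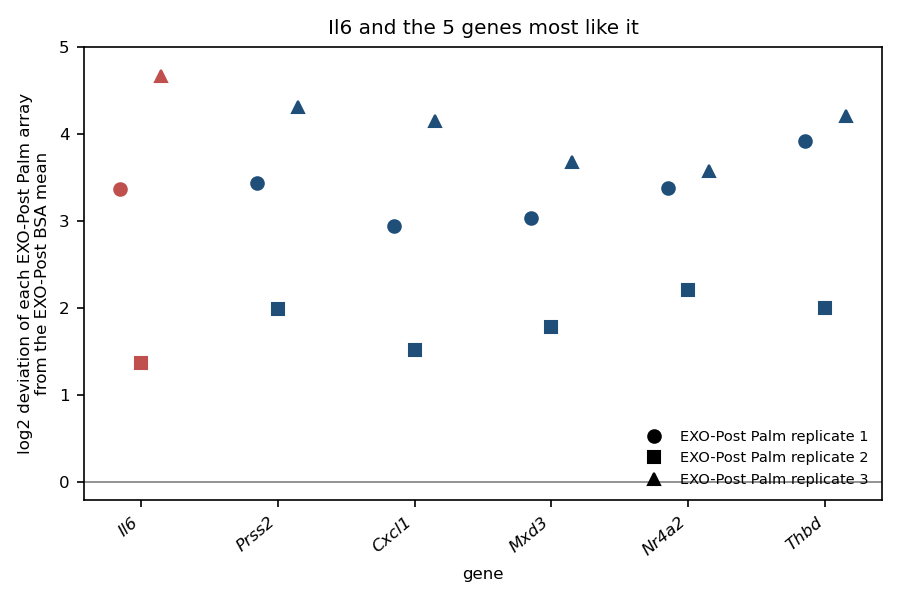
Log2 deviation of the 3 EXO-Post Palm arrays from the EXO-Post BSA mean (y axis) for Il6, at the left, and the 5 genes with the most similar pattern over the 7 arrays. The genes were picked for their likeness to Il6, whose points are at 3.37, 1.37 and 4.67 for replicates 1 to 3, and Prss2 and Mxd3 were above background on only 0 and 2 of the 4 EXO-Post BSA arrays.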

How the data were processed

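RNA of recipient C2C12 cells, 100 ng a sample, was labelled with Cy3 and hybridised to 1-colour Agilent mouse arrays. The deposited scanner files hold, per spot, a processed intensity that the authors' Feature Extraction software had background-subtracted and not normalised between arrays (version 10.7.3.1 in 6 file headers and 11.5.1.1 in that of EXO-Post BSA replicate 3, while the submitters' processing notes give 9.1). The authors also deposited a table of processed values on the log2 scale, used as an alternative (rank correlation with the scanner values 0.994 to 0.999), whose normalisation is not given in the sources used here. No columns of the authors' own comparisons were used.

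Log2 of the processed intensity minus the 75th percentile over the 43020 non-control spots of each array was used, without spots marked as uneven or outliers, and the spots of a probe were averaged (399 probes have 10 spots). A probe was tested where at least 75% of the arrays of either group had it well above background. Groups were compared with limma 3.58.1 (R 4.3.3, data.table (1.17.8), jsonlite 2.0.0), on condition alone, with a prior of 3.67 degrees of freedom and Benjamini-Hochberg adjustment over all tested probes at 0.05, 2-sided. For single probes the arrays were also permuted exactly, in all 35 splits into 4 and 3. The fit was also run on simulated data with independent arrays, equal spread in both groups and no slide effect. It therefore does not cover the slides or the unequal spread of these arrays. No array spot was saturated, and the number of arrays, 7, limits the precision.

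The family and the pathway, marker and motif lists were chosen with earlier results of these data known, so list counts are descriptions. Named genes are the family, the list genes past the threshold or with the largest positive and negative difference, the 5 genes most like Il6, and the markers. No list gene passed the threshold, and Cish, Bcl2l1 and the list genes with an unadjusted p under 0.05 were added after their values were seen. The same comparison for Socs3 was part of the rule and is not reported here. Lists take the brightest probe of a gene. The main fit did not pair arrays by replicate number. Deviations from the group means correlated at 0.122, -0.150 and -0.148 between arrays of the same number. With so few arrays these values cannot settle whether the replicates were paired. Alternatives covered background correction (normexp with an offset of 50), scaling, filters, slide and replicate blocks, weights, the methods' t-test and each array left out. Probe positions are mm9 and promoters RefSeq on GRCm38.p6. Plots used matplotlib.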

Additional observations from a re-analysis of the deposited data

Results flagged for a closer look

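Of 25 probes examined over the 4 EXO-Post BSA arrays for a single array far from the rest, 1 stood out, and about 1 in 20 such groups does so by chance. The probe of Ctf2, A_52_P656790, was at -3.76 on EXO-Post BSA replicate 2, while the other 3 arrays lay between -4.51 and -4.44, on the log2 scale relative to the 75th percentile. No family probe stood out in this way.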

How the results depend on the processing

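The 13 family probes were recomputed under 21 alternatives, 273 values in all, of which 261 kept their direction and their side of the threshold. Lif moved to -0.33 with normexp on the median signal and quantile normalisation, an alternative chosen after seeing the data because 1 file lacks the mean signal, for which the planned correction was not run. The Lifr probe A_51_P113182 went from -0.87 to 0.065 as arrays were left out, turning sign without EXO-Post Palm replicate 3. Il6 ranged from 1.93 (normexp) to 4.05. The number of family probes past the threshold went from 0 to 1, always Il6, under 3 alternatives that kept all arrays. These were only probes above background on all arrays (limma adjusted p = 0.0310), slide as a block (0.0327) and array weights (0.0315). It was also 1 without EXO-Post Palm replicate 2 (0.0112), an array that adds nothing to the difference with slide as a block. Leaving out arrays gave a number of 0 to 1. It was 6 with the methods' t-test, unadjusted.

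Over all probes, the 115 calls became 0 without a probe filter, 40 with probes above background on at least 1 array, 181 with slide as a random block and 173 with a trended and robust fit. The replicate block gave 0 calls (1933 at an unadjusted p under 0.05), and 0 among the family. The methods' t-test gave 2107 unadjusted and 0 after Benjamini-Hochberg. Leaving out 1 array gave 4 to 228. The causes were not tested. At an unadjusted p, 4 to 8 family probes passed under the limma alternatives, and 7 to 12 pathway genes were higher with at most 2 lower. The number over all probes moved as well. It was 1516 of 22198 without EXO-Post Palm replicate 3, 1900 of 39429 without a probe filter and 2549 of 21589 with normexp. Of the pathway genes Mt2 passed the adjusted threshold with normexp, Cebpd with slide as a block, and Cebpd and Saa3 without EXO-Post Palm replicate 2. The dim probes of Lif and Stat3 (A_55_P1991219) are limited by signal over background. So is the Il6 probe in EXO-Post BSA, where its intensities were 46.16 to 101.2.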
